A study of Mus musculus with 6 samples.

Results

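The Ifit genes (interferon-induced proteins with tetratricopeptide repeats) were followed in GFP+Lin-c-Kit+ AE9a leukemia cells. The family was taken by name as Ifit1, Ifit2, Ifit3, Ifit3b, Ifit1bl1 and Ifit1bl2, which were 6 of the 53618 named rows of the expression table. The 6 bulk RNA-seq libraries came from splenocytes of recipient mice that carried Usp18+/f UBCER-Cre leukemia cells, driven by AE9a, a truncated AML1-ETO fusion protein introduced with GFP by retrovirus. Of these, 3 were from mice injected with oil (Usp18+/f) and 3 from mice injected with tamoxifen, given to delete 1 Usp18 allele, and cells were sorted 3 days after the first injection, once the mice were sick. UBCER-Cre is expressed broadly and is switched on by tamoxifen, so in this design tamoxifen exposure, Cre activity and loss of the allele cannot be told apart. Recipients were C57BL/6 mice, and the study used young adult animals of both sexes.

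IFIT proteins are antiviral effectors that most cells make at low levels until type I interferon signals through its receptor. The receptor kinases JAK1 and TYK2 then activate transcription factors, among them STAT2, which joins IRF9 in the complex ISGF3 to bind an interferon-stimulated response element (ISRE) before the genes it switches on. IFIT1 binds RNA whose cap lacks ribose methylation and blocks its translation, IFIT2 binds the translation factor eIF3 and has been tied to cell death, and IFIT3 is an adaptor linked to MAVS and TBK1. USP18 binds IFNAR2 and restrains this signaling, and is itself an interferon-stimulated gene (ISG).

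The family lies within 99.32 kb of chromosome 19 (34550694 to 34650009, GRCm38). In GENCODE vM21 the order is Ifit2 (34550694 to 34576419), Ifit3 (34583531 to 34588731), Ifit1bl1 (34592891 to 34601956), Ifit3b (34607970 to 34613401), Ifit1bl2 (34617049 to 34640743) and Ifit1 (34640871 to 34650009). Ifit1bl1 and Ifit1bl2 are on the minus strand and the others on the plus strand. Nearly all coding sequence of Ifit1 is in the second of its 2 exons (34647471 to 34650009), where 1384 coding bases lie, and its first exon holds 5. Ifit3 and Ifit3b have the same layout. In Ifit2 the exon with the first 5 coding bases (34570219 to 34570370) comes after a noncoding first exon.

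**Figure D1:**
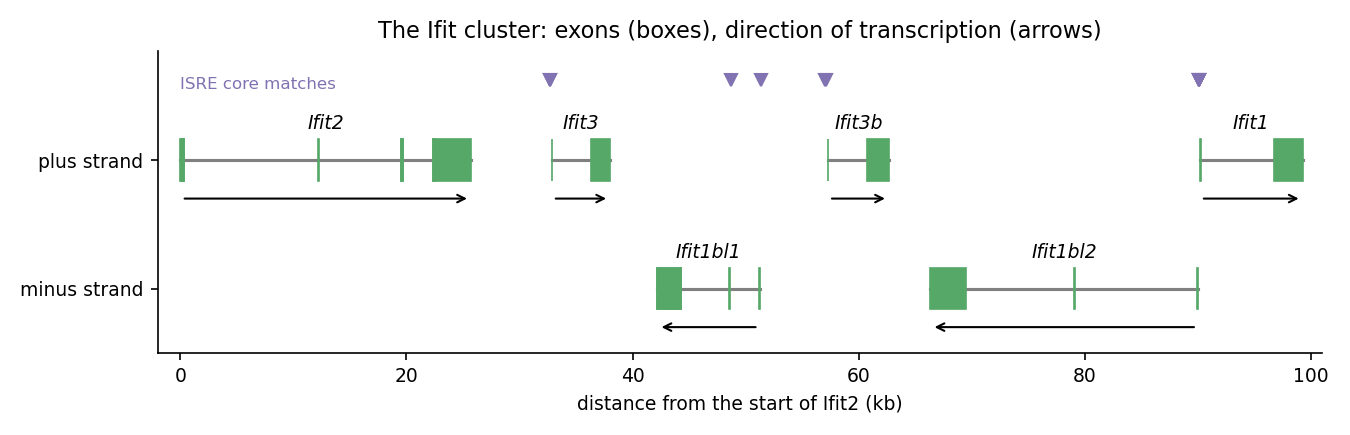
Map of the Ifit cluster, with distance from the start of Ifit2 in kb on the x axis and the strand on the y axis. Boxes are GENCODE vM21 exons, arrows give the direction of transcription, and triangles mark matches to the ISRE core within 250 bases before a RefSeq start, which stand before Ifit3, Ifit3b, Ifit1bl1 and between Ifit1bl2 and Ifit1, and none stands at the starts of Ifit2 searched.

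The sequence before the RefSeq starts is shown because ISGF3 can act there. In the windows searched it differed between the 2 members with the most reads. For Ifit2 no window covered the exon with the first coding bases, so a match there could have been missed. Whether the sequence bears on the levels was not tested. RefSeq (GRCm38.p6) gave 9 windows for the 6 members. In the 250 bases before each start, the ISRE core GAAANNGAAA was searched on both strands, where its reverse complement is TTTCNNTTTC. Of 32851 windows of this length over all genes, 2.98% held a match and 0.180% held 2 or more. Capitals mark the matches, and stretches were ended where a GENCODE exon of the family begins.

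Ifit1 and Ifit1bl2, chr19:34640744-34640870, plus strand: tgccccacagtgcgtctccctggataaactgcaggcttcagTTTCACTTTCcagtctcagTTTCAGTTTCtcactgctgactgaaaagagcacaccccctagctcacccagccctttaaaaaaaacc
Ifit3, chr19:34583329-34583528, plus strand: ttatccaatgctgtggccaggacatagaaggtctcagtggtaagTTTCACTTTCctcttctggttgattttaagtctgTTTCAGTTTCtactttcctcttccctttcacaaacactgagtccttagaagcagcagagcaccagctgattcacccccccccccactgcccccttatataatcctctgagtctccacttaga
Ifit3b, chr19:34607757-34607956, plus strand: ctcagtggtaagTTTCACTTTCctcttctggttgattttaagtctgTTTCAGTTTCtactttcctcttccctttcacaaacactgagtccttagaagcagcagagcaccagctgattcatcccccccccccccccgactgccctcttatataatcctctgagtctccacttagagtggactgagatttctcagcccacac
Ifit1bl1, chr19:34601969-34602168, minus strand: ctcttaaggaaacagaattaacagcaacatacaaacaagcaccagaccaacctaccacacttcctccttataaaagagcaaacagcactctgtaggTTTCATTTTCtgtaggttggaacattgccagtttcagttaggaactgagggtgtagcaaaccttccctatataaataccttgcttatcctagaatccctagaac
Ifit2, chr19:34550494-34550693, plus strand: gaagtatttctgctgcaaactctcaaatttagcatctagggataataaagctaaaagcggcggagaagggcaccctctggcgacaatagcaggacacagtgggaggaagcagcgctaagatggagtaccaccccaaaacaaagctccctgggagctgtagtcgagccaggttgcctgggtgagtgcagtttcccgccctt

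Ifit1 and Ifit1bl2 are transcribed away from each other, with RefSeq starts 146 bases apart, and the 127 bases between their exons hold 2 matches. These are the same bases for both genes. They begin 104 and 85 bases before the Ifit1 start, and on the other strand 51 and 70 bases before the Ifit1bl2 start. Ifit3 has its 2 matches at 156 and 122 bases before the start and Ifit3b at 188 and 154. All 3 stretches hold TTTCACTTTC followed by TTTCAGTTTC, with 9 bases between them before Ifit1 and 24 before Ifit3 and Ifit3b. Ifit1bl1 has 1 match, TTTCATTTTC, in each of its 2 windows. Neither of the Ifit2 windows, at the starts 34550694 and 34551088, nor the window at the other Ifit1bl2 start (34629811) held one. No RefSeq window covered the Ifit2 exon with the first coding bases, so sequence there was not searched.

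The members also differ in how well reads can tell them apart. Over their coding sequence, Ifit3 and Ifit3b were identical at 1198 of 1209 aligned bases (99.1%), and Ifit1bl1 and Ifit1bl2 at 89.9%. Ifit1 was 81.2% identical to Ifit1bl1, and Ifit2 was between 71.3% and 74.0% identical to the others. Of all 150-base stretches of the Ifit3 transcripts, 18.5% occur unchanged in Ifit3b, and 16.0% of those of Ifit3b occur in Ifit3. This share was 1.24% for Ifit1 and 0 for Ifit2 and Ifit1bl1. Values of Ifit3 and Ifit3b are therefore uncertain, since how the authors counted reads that fit both is not given in the sources used here. Among the 51944 of 53618 named rows matched to GENCODE vM21 by symbol, no other gene overlaps a member.

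The libraries held between 19172471 and 23785143 reads. The library labelled tamoxifen 1 stood apart from the rest. Its median correlation with the other libraries, across genes, was 0.913, against 0.981 to 0.990 for the others, and mitochondrial genes took 0.00923% of its reads against 1.01% to 1.56%. Of the genes of the labelled cell type, Kit had 4687 to 10976 normalized counts and Cd34 201 to 1052, both with overlap between the groups. In contrast, Ptprc (CD45, a marker of white blood cells) had 1 to 8 reads per library, and the 4 erythroid markers summed to between 46526 and 81953. Usp18, the targeted gene, went against its label, with 217, 214 and 176 normalized counts under oil and 477, 329 and 284 under tamoxifen (limma adjusted p 0.666). These values cover the whole gene and do not resolve a deleted stretch. Groups are therefore called by their labels throughout.

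Ifit1 was higher in every library labelled tamoxifen. Its normalized counts, which are reads divided by 1 size factor per library, were 32.3, 39.6 and 25.1 under the label oil and 298, 226 and 236 under the label tamoxifen. The lowest value under tamoxifen was above the highest under oil, and the library that stood apart had the highest value. The means were 32.3 ± 7.24 and 254 ± 38.7 (SD, n = 3 each), a ratio of 7.84. These values rested on 36, 41 and 27 reads under oil and 233, 224 and 260 under tamoxifen.

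In limma on log2(value + 1), fitted over all 12298 genes with a value of at least 10 in 3 or more libraries, the log2 fold change of Ifit1 was 2.95 ± 0.26 (SE). Its adjusted p was 0.0950, above the threshold of 0.05. This fit called 0% of the genes tested, that is 0 of 12298, while 550 had an unadjusted p under 0.05. Of all genes tested, 3.23% had such a p and were higher under tamoxifen, and Ifit1 had the second smallest p of all and the 15th highest fold. DESeq2, the tool of the study, run on the recovered reads, gave 2.97 ± 0.31 (SE) and an adjusted p of 2.15e-17. DESeq2 called 0.451% of 15314 genes as higher and 71 genes in either direction, and edgeR called 0 of 12340, with an adjusted p of 0.0869 for Ifit1.

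In limma the call of Ifit1 turned on the library labelled tamoxifen 1. Without it, Ifit1 had 2.82 ± 0.24 (SE) on the log2 scale and an adjusted p of 0.00183, in a fit that called 0.309% of the genes as higher. The groups of Ifit1 did not overlap, which was also so, in the same direction, for 7.86% of the genes tested.

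Summed levels of macrophage and neutrophil markers were also higher in every library labelled tamoxifen. The 10 macrophage markers summed to between 104 and 256 normalized counts under oil and between 295 and 394 under tamoxifen, and 8 were tested. Of these, 0 passed in limma, 4 had an unadjusted p under 0.05 and a higher level under tamoxifen (3.23% over all genes tested), and 4 were higher in all 3 libraries labelled tamoxifen (7.86%), while DESeq2 called 0 of the 10. The 5 neutrophil markers summed to 4.64 to 7.72 and 22.7 to 43.5, with Ly6g at 0 reads throughout, and were too low to test in limma, while DESeq2 called 0 of 4. B cell markers summed to 4.64 to 9.65 and 6.06 to 24.3, with Ms4a1 at 0 reads. T cell markers summed to 4.04 at most, with Cd3e, Cd8a and Cd8b1 at 0 reads, and NK cell markers to 0.965 at most, with Ncr1, Klrb1c and Eomes at 0 reads. The plasmacytoid dendritic cell markers summed to 1623 to 1990 under oil and 1999 to 5272 under tamoxifen, of which nearly all was Bst2, itself an ISG, while Siglech had at most 1 read. The part of these cells in the Ifit1 difference was not tested. In such bulk samples, more cells of a type and more RNA per cell cannot be told apart.

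**Figure D2:**
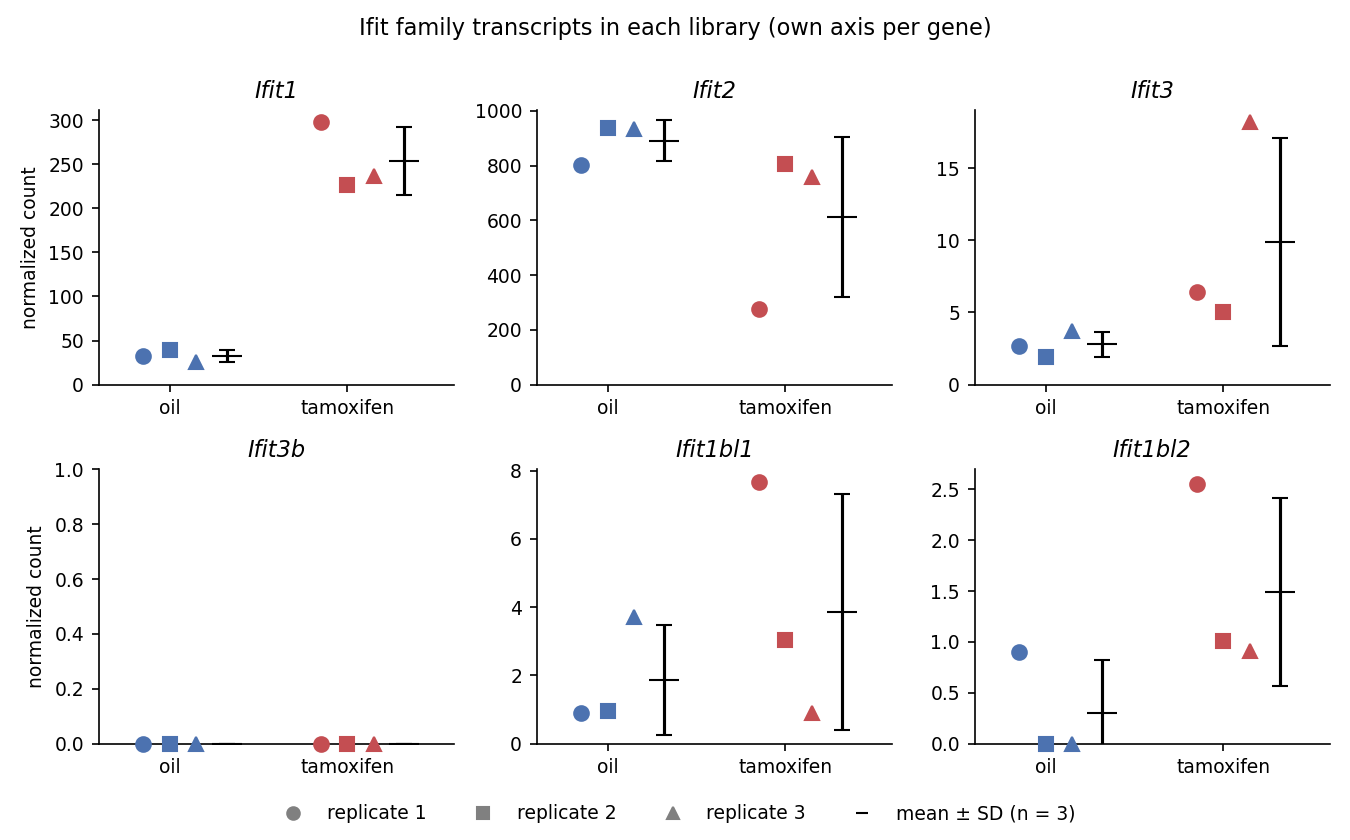
Normalized counts (y axis, a separate scale for each gene) of the 6 Ifit genes in the libraries labelled oil (blue) and tamoxifen (red), with the replicate number as the symbol and the mean ± SD of 3 libraries in black. Ifit1 lies at 25.1 to 39.6 under oil and 226 to 298 under tamoxifen, Ifit2 is low only in tamoxifen 1, and Ifit3b is at 0 in all 6.

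Ifit2, the most abundant member under oil, was not higher under tamoxifen. Its normalized counts were 803, 938 and 932 under oil and 277, 806 and 757 under tamoxifen. The groups overlapped, at 803 and 806, and the value of tamoxifen 1 was far below the other 5. The means were 891 ± 76.2 and 613 ± 292 (SD, n = 3 each). Its limma log2 fold change was -0.68 ± 0.41 (SE), adjusted p 0.666. Without tamoxifen 1 it was -0.19 ± 0.10 (SE), adjusted p 0.504, and DESeq2 over all 6 libraries gave -0.54 with an adjusted p of 0.830.

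The difference between Ifit1 and Ifit2 was also taken within each library, where scaling of the library cancels apart from the pseudocount. On the log2(value + 1) scale, Ifit1 minus Ifit2 was -4.59, -4.53 and -5.16 under oil and 0.10, -1.83 and -1.67 under tamoxifen. The groups were apart by 3.63 on this scale, with means of -4.76 ± 0.35 and -1.13 ± 1.07 (SD, n = 3 each). An exact two-sided permutation test over libraries gave p = 0.1, the smallest that 3 against 3 can give. The value of tamoxifen 1 was the highest, and the other 2 libraries labelled tamoxifen were also above all 3 labelled oil.

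The low value of Ifit2 in tamoxifen 1 was compared with its GC content, because that library departed from the others by GC. The exons of Ifit2 have 42.0% GC and those of Ifit1 43.3%. Among 1604 protein-coding genes with 40% to 44% GC, the log2 value in tamoxifen 1 minus the mean of tamoxifen 2 and 3 had a median of -1.03. Ifit2 differed by -1.49, below this median and above 26.8% of these genes. Ifit1 differed by 0.36, above 95.7% of them. After a correction of each library for GC content, Ifit2 in tamoxifen 1 differed by -0.33 and Ifit1 by 1.33. With that correction the limma log2 fold change was -0.31 (adjusted p 0.681) for Ifit2 and 3.26 (adjusted p 0.0958) for Ifit1.

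**Figure D3:**
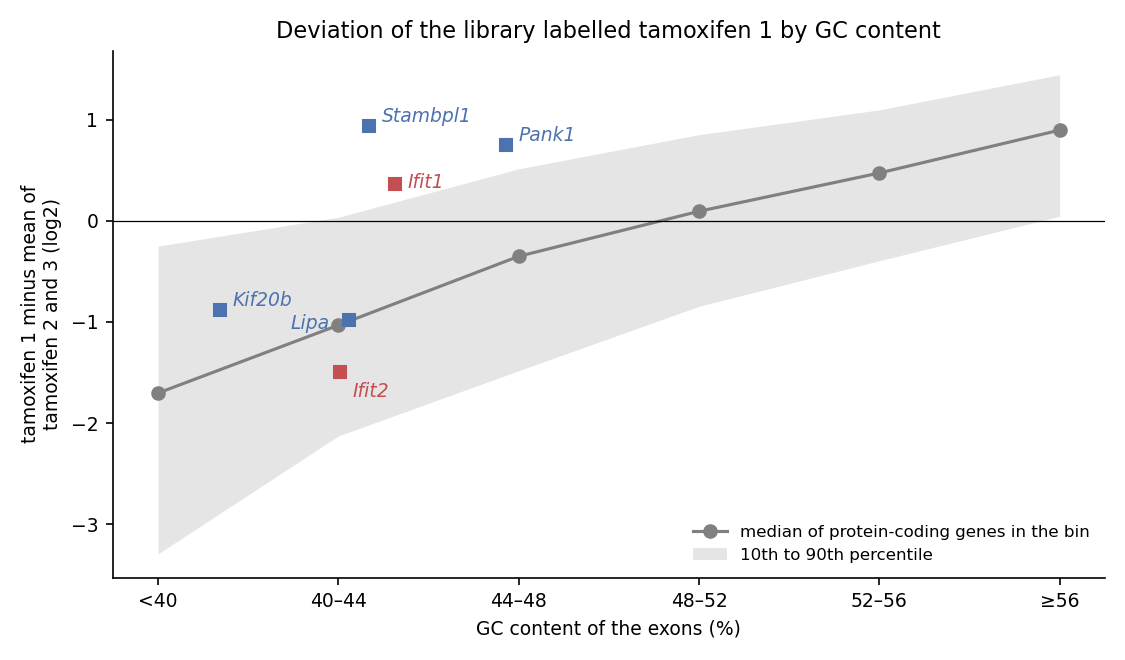
The log2 value in tamoxifen 1 minus the mean of tamoxifen 2 and 3 (y axis) against the GC content of the exons in percent (x axis). Grey points join the medians of protein-coding genes in each GC bin, drawn at its middle or, for the open bins, beside its limit, and the band runs from the 10th to the 90th percentile. Squares are Ifit genes (red) and neighbouring genes (blue) at their own GC content, with Ifit2 at -1.49 inside the band and Ifit1 at 0.36 above it.

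The other 4 members had few reads and did not pass the filter on low values, so only 2 of the 6 members were tested in limma. Ifit3 had 3, 2 and 4 reads under oil and 5, 5 and 20 under tamoxifen. As normalized counts these were 2.69, 1.93 and 3.71 against 6.39, 5.05 and 18.2. All 3 values under tamoxifen were higher, which was also so for 7.86% of the genes tested in limma, where Ifit3 was not tested. Oil 1 and oil 2 were at or below 3 reads, and the nearest values were 4 reads in oil 3 and 5 in tamoxifen 1 and 2. Tamoxifen 3 gave 20 of the 30 reads of its group. DESeq2 gave 1.84 ± 0.95 (SE) on the log2 scale, adjusted p 0.830.

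Ifit3b had 0 reads in all 6 libraries. A count of 0 allows up to 3 reads, which is 2.69 to 3.83 normalized counts per library and covers counting error only. Its upstream sequence holds the same pair of ISRE core matches as that of Ifit3.

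Ifit1bl1, a relative of Ifit1, had 1, 1 and 4 reads under oil and 6, 3 and 1 under tamoxifen, so the groups overlapped. Ifit1bl2 had 1, 0 and 0 reads under oil and 2, 1 and 1 under tamoxifen. Every value of Ifit1bl2 was at or below 3 reads, so its libraries have no order. It shares its upstream stretch with Ifit1, which had 224 to 260 reads in the libraries labelled tamoxifen.

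Levels of the members were compared with each other per kilobase of exon. In the libraries labelled oil, Ifit2 had 227 ± 19.4 normalized counts per kb, Ifit1 12.2 ± 2.73, Ifit3 1.59 ± 0.513, Ifit1bl1 0.823 ± 0.711 and Ifit1bl2 0.0889 ± 0.154 (SD, n = 3 each). The ranges of Ifit3 (1.11 to 2.13) and Ifit1bl1 (0.397 to 1.64) overlapped, and below them no order can be read. In the libraries labelled tamoxifen, Ifit2 had 156 ± 74.4 and Ifit1 95.4 ± 14.6 normalized counts per kb (SD, n = 3 each). Those 2 ranges overlapped, from 70.6 to 205 for Ifit2 and from 85.2 to 112 for Ifit1. Ifit3 followed with 5.66 ± 4.14 and Ifit1bl1 with 1.71 ± 1.53 (SD, n = 3 each), whose ranges overlapped as well.

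Per kilobase, Ifit2 was 16.8, 16.0 and 25.1 times Ifit1 under oil. The same ratio was 0.630, 2.41 and 2.16 under tamoxifen. Ifit2 was thus the most abundant member in 5 of the 6 libraries, and Ifit1 in tamoxifen 1.

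**Figure D4:**
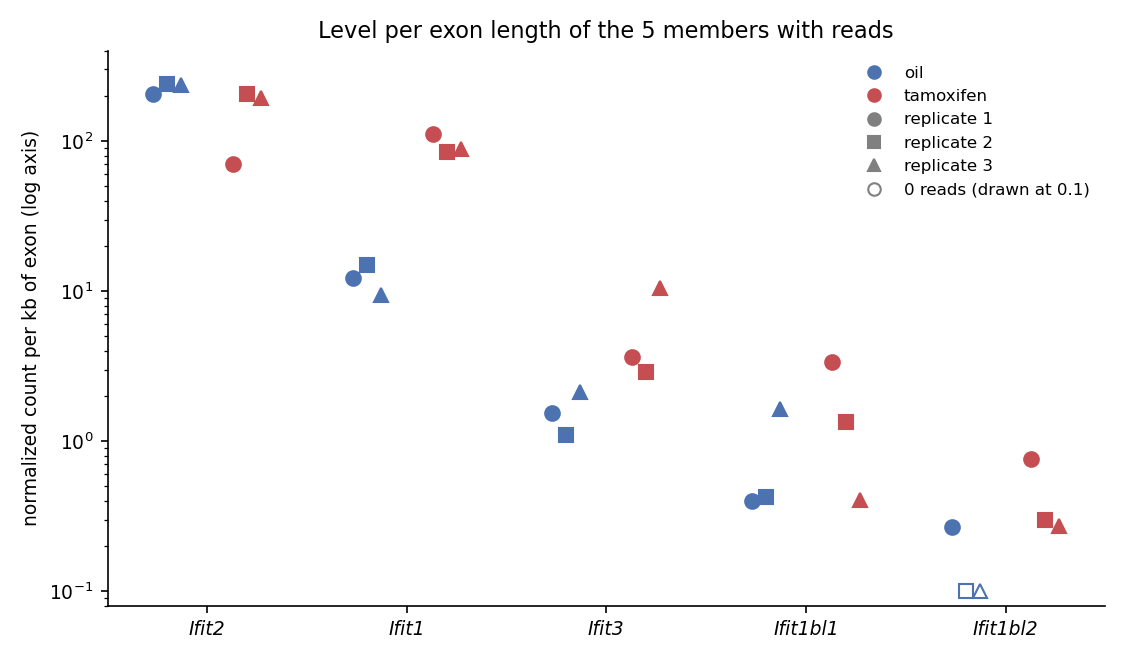
Normalized counts per kb of exon (log y axis) of the 5 Ifit genes with reads, in the libraries labelled oil (blue) and tamoxifen (red), with the replicate number as the symbol and open symbols for 0 reads. Ifit1 lies between 9.44 and 14.9 under oil and between 85.2 and 112 under tamoxifen, where it overlaps Ifit2.

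Genes around the cluster were read in the same fit. Within 500 kb, 11 other protein-coding genes are annotated, and 6 of them had no more than 3 reads in any library. Of the other 5, 4 were tested and limma called 0 of these, with 0 at an unadjusted p under 0.05. DESeq2 called 0 of the 5, with 1, Fas, at an unadjusted p under 0.05. Over the whole table DESeq2 put 886 genes at such a p, 728 of them higher under tamoxifen. Lipa, a lysosomal acid lipase 23.22 kb before Ifit2, had 797, 722 and 698 normalized counts under oil and 391, 775 and 774 under tamoxifen, and like Ifit2 was low in tamoxifen 1 alone. Kif20b, a mitotic kinesin 272.4 kb after Ifit1, had 2220, 2183 and 2184 under oil and 1065, 2179 and 1764 under tamoxifen. It was lower in all 3 libraries labelled tamoxifen, as were 9.69% of the genes tested.

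Pank1, a pantothenate kinase 156.9 kb after Ifit1, had 534, 484 and 495 normalized counts under oil and 944, 526 and 601 under tamoxifen, which overlapped. Stambpl1, a deubiquitinase, had 43.1, 36.7 and 26.0 against 74.1, 40.4 and 36.4. Both were highest in tamoxifen 1. Fas, the death receptor and a p53 target, had 1.80, 0.965 and 0.929 normalized counts under oil and 6.39, 10.1 and 9.09 under tamoxifen, on 1 or 2 reads per library under oil. The groups of Fas did not overlap, which was also so, in the same direction, for 7.86% of the genes tested in limma, where Fas was not tested. DESeq2 gave 2.79 ± 1.06 (SE) for Fas on the log2 scale, p 0.00871 and adjusted p 0.466.

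Genes of the pathway that drives Ifit transcription were then read in the same limma fit. Of the 9 genes of the ISGF3 list, all were tested, 7 had higher and 2 lower means under tamoxifen, and 0 passed the threshold. Their median log2 fold change was 0.32, beside -0.02 over all genes tested. In 3 of the 9, Irf7, Irf9 and Irf1, all 3 libraries labelled tamoxifen were higher, beside 7.86% of all genes tested. Without tamoxifen 1 the median was 0.02 and 1 gene passed, Irf7, where 0.309% of all genes passed as higher. DESeq2 over all 6 libraries also called Irf7 alone (adjusted p 3.78e-06), beside 0.451% of all genes. Irf7, which sustains interferon production and is itself an ISG, had 255, 350 and 245 normalized counts under oil and 1394, 890 and 824 under tamoxifen. The groups of Irf7 were far apart, and limma gave 1.84 ± 0.26 (SE) on the log2 scale, adjusted p 0.426 over all 6 libraries and 0.00277 without tamoxifen 1.

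The ISGF3 subunits Irf9 and Stat2 had smaller fold changes than Irf7. Irf9 had 1578, 1652 and 1434 normalized counts under oil and 2023, 2021 and 1891 under tamoxifen. Its groups did not overlap, which was also so, in the same direction, for 7.86% of the genes tested. Its log2 fold change was 0.35 (limma adjusted p 0.666). Stat2 had 563, 684 and 550 under oil and 1086, 669 and 667 under tamoxifen, so the groups overlapped, and a log2 fold change of 0.40 (limma adjusted p 0.666). Irf1, which can bind the same element, had 66.5, 76.2 and 72.4 under oil and 221, 92.9 and 96.4 under tamoxifen, with a log2 fold change of 0.80 (limma adjusted p 0.666).

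The receptor chains, their kinases and Irf3 overlapped between the groups. Log2 fold changes were -0.10 for Ifnar1, 0.32 for Ifnar2, -0.26 for Jak1, 0.26 for Tyk2 and 0.19 for Irf3, the factor that acts before interferon is made. In tamoxifen 1 Ifnar2 and Irf3 were the highest of the 6 libraries, at 2574 and 1857 normalized counts, and without it their fold changes were -0.06 and -0.22.

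Other ISGs were mostly on the side of Ifit1. Of 38 listed, 33 were tested, 31 had a log2 fold change above 0 and 2 below it, 0 passed in limma over all 6 libraries, and 19 had an unadjusted p under 0.05, all higher, beside 3.23% of all genes tested. Their median log2 fold change was 0.79, and in 22 of the 33 all 3 libraries labelled tamoxifen were higher, beside 7.86% of all genes tested. Without tamoxifen 1 the median was 0.59 and 7 passed in limma, all higher, where 0.309% of all genes did. DESeq2 over all 6 libraries called 10 of 34 as higher, beside 0.451% of all genes. The 5 with the smallest p were Rsad2, Mx1, Rtp4, Mx2 and Oasl2. Of these, Mx1, a dynamin-like antiviral GTPase, had 5.39, 9.65 and 2.79 normalized counts under oil and 44.7, 49.5 and 50.02 under tamoxifen, and its log2 fold change of 2.95 was close to that of Ifit1. Oasl2, of the oligoadenylate synthetase family, had 59.3, 97.4 and 52.0 against 400.03, 248 and 200.07. Rtp4 had 61.1, 142 and 75.2 against 349, 348 and 378, and Mx2 had 1.80, 8.68 and 2.79 against 38.3, 31.3 and 37.3. All 5 were without overlap, with log2 fold changes from 1.998 for Oasl2 to 2.96 for Mx2 and limma adjusted p between 0.426 and 0.580. They were picked by p in this same comparison, so their separation follows in part from that choice. Rsad2, Mx1 and Mx2 were under 10 normalized counts in every library labelled oil. Each of them passed the filter on low values only through the libraries labelled tamoxifen.

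The proteins on which IFITs act or which act with them were divided in direction. Of 10 listed genes all were tested, 5 were higher and 5 lower, 0 passed, and the median log2 fold change was -0.03. Cmtr1, the cap ribose methyltransferase whose mark lets RNA escape IFIT1, had 30.5, 22.2 and 17.6 normalized counts under oil and 25.6, 29.3 and 34.6 under tamoxifen, which overlapped. Cmtr2 and the cap methyltransferase Rnmt had log2 fold changes of 0.12 and -0.15. Among the eIF3 subunits, Eif3a had 0.21, Eif3c 0.07 and Eif3e -0.71, where Eif3e had 3650 normalized counts in tamoxifen 1 and 12240 to 14026 in the other 5 libraries. Without tamoxifen 1 the value of Eif3e was -0.10. In the sensing pathway, Mavs had a log2 fold change of -0.19, Tbk1 -0.50, Tmem173 (STING) -0.12 and Traf3 0.49. Without tamoxifen 1, Tbk1 had -0.14 and Traf3 0.31. Traf3 had the smallest p of the list (0.0364 in limma, adjusted p 0.666). The groups did not overlap for Traf3 and Eif3a, which were higher under tamoxifen (7.86% over all genes tested), and for Tbk1, which was lower (9.69%).

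**Figure D5:**
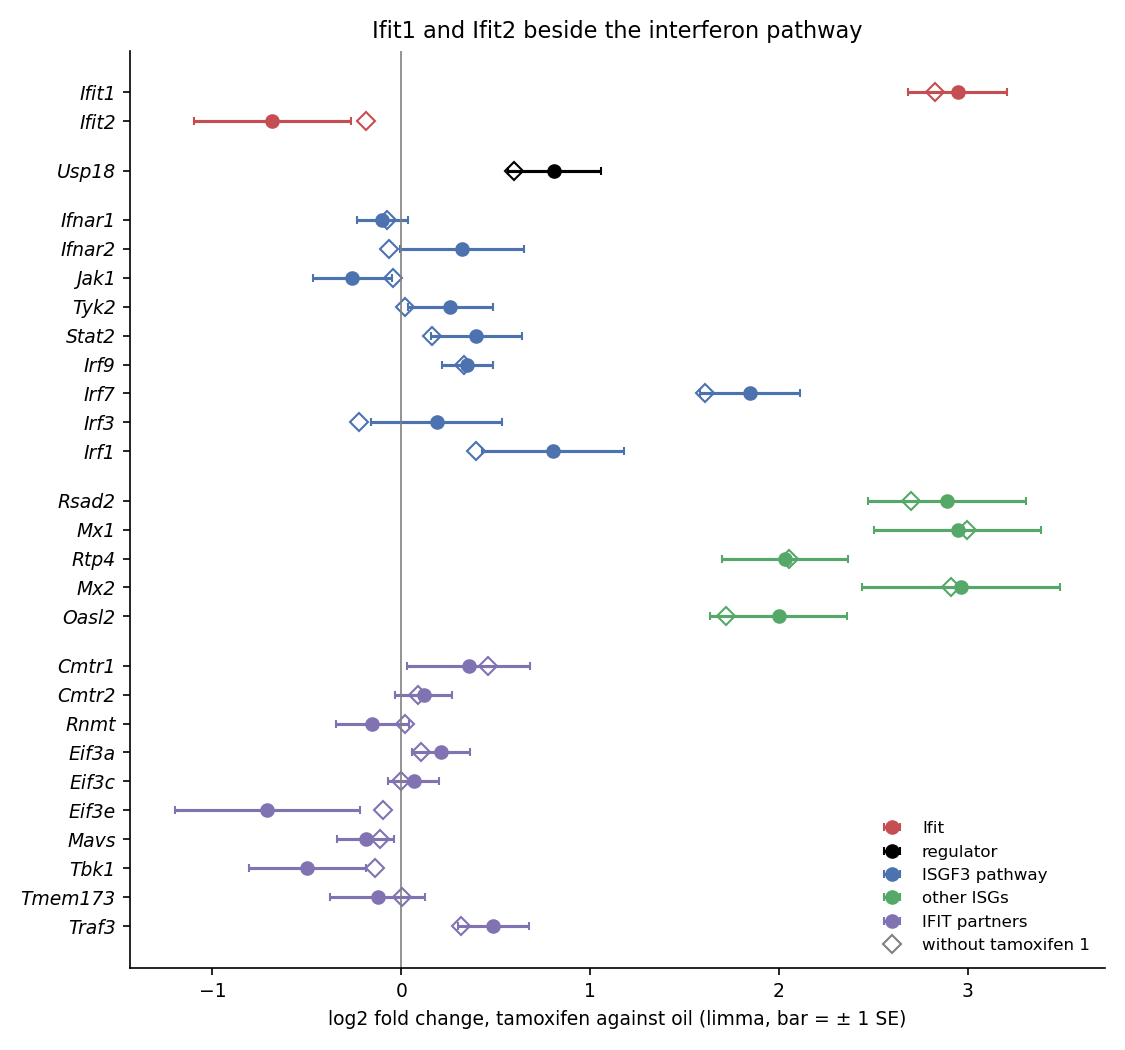
Log2 fold change of the libraries labelled tamoxifen against those labelled oil (x axis, limma on log2(value + 1), bars ± 1 SE) for the 2 tested Ifit genes, Usp18, the ISGF3 pathway, the 5 other ISGs with the smallest p and the IFIT partners. Open diamonds leave out tamoxifen 1. Ifit1 at 2.95 stands beside Mx1 and Mx2, while Ifit2 at -0.68 moves to -0.19 without that library.

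The genes most like Ifit1 over the 6 libraries were found by Pearson's correlation of log2(value + 1), as a description over libraries that share 1 group difference. They were Gzmb (r = 0.991), a cytotoxic granule protease, Cacna1h (0.990), a calcium channel subunit, 1110051M20Rik (0.989), Rsad2 (0.987), an antiviral ISG also named viperin, and Maf (0.987), a transcription factor. Gzmb had 5.39, 6.75 and 6.50 normalized counts under oil and 83.1, 71.7 and 74.6 under tamoxifen. Cacna1h had 7.19, 14.5 and 7.43 against 148, 81.8 and 137. 1110051M20Rik shared the order of the libraries but not the size, with a log2 fold change of 0.28. Rsad2 had 1.80, 2.89 and 1.86 against 29.4, 24.2 and 15.5, on 2, 3 and 2 reads under oil. Gzmb, Rsad2 and Maf were under 10 normalized counts in every library labelled oil. Each of them entered this comparison only through the libraries labelled tamoxifen. Of 12297 genes compared, 39 had r above 0.95, and Ifit2 had r = -0.62.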

How the data were processed

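Bulk RNA-seq values of 6 libraries, 3 labelled oil and 3 labelled tamoxifen, were analysed. Each library came from a separate mouse per the study's methods. Per the submitters' processing notes, STAR and DESeq2 were used by the authors with the build mm10 (GRCm38). The annotation, the strand setting and any filter are not given in the sources used here. The labels name a DNA tagmentation kit. The deposited values are called counts but are a normalized signal, made by the authors from reads by division by 1 size factor per library. Division by the smallest value above 0 recovered whole reads for 100% of values (tolerance 0.01 read). In tamoxifen 2 the step was 1.01, too near 1 for an automatic test to tell it from unscaled counts. Of 55450 rows, 1832 without a name (0.0400% to 0.0614% of reads) were left out.

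The fit was limma (version 3.58.1, R 4.3.3, lmFit and eBayes with a trend) on log2(value + 1), which understates changes of low genes, over named genes with a value of at least 10 in 3 libraries, with two-sided p-values adjusted by Benjamini-Hochberg and a threshold of 0.05. DESeq2 (1.42.0) and edgeR (4.0.16) were run on recovered reads. The fits were run on simulated counts with the same dispersion for all genes and no library that stood apart. They were therefore not tested for data with such a library. Gene length and GC came from GENCODE vM21, matched by symbol for 51944 of 53618 named rows. Promoter windows came from RefSeq (GRCm38.p6). The genes described were the 6 members, Usp18, every gene of the ISGF3 and IFIT partner lists, the 5 other ISGs with the smallest p, up to 3 measured protein-coding neighbours on each side within 500 kb, and the 5 genes most correlated with Ifit1. Cell type markers were read as list totals, apart from Kit, Cd34, Ptprc and the single markers named beside a total. Of the lists, 2 genes are not reported here and enter no list count. Members, lists and rules were chosen with earlier results of these data known. Alternatives were other tools, TMM and upper-quartile scaling, pseudocounts of 0.5 and 5, no filter or at least 1 CPM in 3 libraries, the replicate block, a loess correction for GC (span 0.3), library weights and leaving out each library. DESeq2 and edgeR without tamoxifen 1 were added after the data were seen.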

Additional observations from a re-analysis of the deposited data

How the results depend on the processing

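Over the alternatives run, Ifit1 stayed higher under tamoxifen and Ifit2 lower, with log2 fold changes from 2.78 to 3.26 and from -0.95 to -0.17. Adjusted p of Ifit1 ranged from 2.22e-19 to 0.853 over the limma, edgeR and DESeq2 alternatives, the highest without oil 1, and of Ifit2 from 0.212 to 0.861. The number of Ifit genes past the threshold was 0 in limma over all 6 libraries and 1 (Ifit1) with DESeq2 (2.97), with library weights (2.78, adjusted p 3.57e-05), without tamoxifen 1 (2.82), and without it in DESeq2 (2.86) and edgeR (2.86). The number of other pathway and neighbouring genes past it was 0, and 11, 22, 8, 18 and 9 in the same order, while these fits called 0 of 12298 genes over the whole table, and 71 of 15314, 782 of 12298, 41 of 12298, 231 of 12719 and 46 of 12628. Leaving out 1 library gave 0 to 1 and 0 to 8 such genes, and 2.78 to 3.10 for Ifit1 and -0.95 to -0.19 for Ifit2. Ifit1 passed without tamoxifen 1 alone. Library weights gave tamoxifen 1 a weight of 0.0377. Libraries with the same replicate number did not deviate together (correlations of deviations -0.024, 0.061 and -0.15), and a replicate block called 0 Ifit genes, with Ifit1 at 2.95 (limma adjusted p 0.553). With the GC correction and the replicate block Ifit1 was at 3.26 (limma adjusted p 0.246). The block also took the call of Gzmb in the GC-corrected limma fit (3.59, adjusted p 0.0489 without the block), where calls over all genes went from 2 to 0.

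Of the 40 named genes 8 changed sign in some alternative, all with a fold change that had not passed the threshold, and the cause was not tested. With the GC correction, with or without the replicate block, values were -0.050 for Irf3, 0.17 for Rnmt, 0.066 for Eif3e, 0.11 for Lipa and 0.095 for Kif20b. With library weights they were -0.033 for Ifnar2, -0.25 for Irf3, 0.065 for Rnmt, -0.024 for Eif3c and 0.066 for Lipa. Without tamoxifen 1, limma, DESeq2 and edgeR gave -0.063, -0.049 and -0.043 for Ifnar2, -0.22, -0.21 and -0.20 for Irf3, 0.022, 0.038 and 0.043 for Rnmt, and 0.070, 0.081 and 0.086 for Lipa. Leaving out 1 library gave -0.31 to 0.059 for Tmem173, -0.063 to 0.54 for Ifnar2, -0.22 to 0.43 for Irf3, -0.28 to 0.022 for Rnmt and -0.42 to 0.070 for Lipa. Levels per kb with the longest transcript differed by less than 1 SD from those reported. At 19172471 to 23785143 reads per library, Ifit3, Ifit3b, Ifit1bl1 and Ifit1bl2 were at 0 to 20 reads per library, below the filter on low values.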
